A study of Mus musculus with 20 samples.

Results

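Polyamine synthesis and its control by antizymes were followed through 8 genes, Odc1, Amd1, Srm, Oaz1, Oaz2, Oaz3, Azin1 and Azin2, chosen by name. Of these, 7 had a probe on the array, 1 probe each, among 20868 probes for 16966 gene symbols in all. No probe carried the symbol Amd1, so this gene was not analysed here. RNA came from whole testis of 20 male mice in 4 groups of 5. Xpc-/- mice lack the DNA damage sensor of global genome nucleotide excision repair in every tissue, and Wt mice were C57BL/6, the strain background of the mutants. Mice of each genotype received either benzo[a]pyrene (B[a]P) at 13 mg/kg body weight once by oral gavage, or only sunflower oil, the solvent (control), and all were killed on day 4. No age of the mice was given in the labels or methods. Each mouse had its own array, on which its RNA was read against a common pool from 3 unexposed Wt mice, so the pool was of the same kind as the Wt control group.

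Polyamines (putrescine, spermidine and spermine) are small cations that bind nucleic acids and that every growing cell needs. Ornithine decarboxylase (Odc1) makes putrescine from ornithine, S-adenosylmethionine decarboxylase (Amd1) supplies the aminopropyl donor, and spermidine synthase (Srm) joins them into spermidine. Antizymes bind ornithine decarboxylase, inhibit it and restrain polyamine uptake, and the general antizyme Oaz1 also leads the enzyme to the proteasome. Polyamines themselves raise antizyme production by promoting a ribosomal frameshift on antizyme mRNA. Antizyme inhibitors resemble the enzyme but lack its activity, and they free it by binding antizyme in its place. In testis, Oaz3 is the antizyme of haploid germ cells, Oaz1 and Oaz2 are made in most tissues, and Azin2 is an antizyme inhibitor found mainly in testis and brain. The frameshift and the breakdown of the enzyme act on translation and protein, which an mRNA array does not measure.

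The upstream sequences of the members are shown because benzo[a]pyrene is a ligand of the aryl hydrocarbon receptor, whose complex with ARNT binds DNA with the core GCGTG. RefSeq promoter sequences (build GRCm38.p6) were at hand for 3 of the 7 measured genes, Odc1, Oaz1 and Oaz2. Each is printed 5′ to 3′ on the gene's strand and stops at the last base before the gene model, with the letters GCGTG, or CACGC where the core lies on the other strand, in capitals. The Odc1 window is chr12:17544623-17544807 (plus strand, 185 bases), the Oaz1 window chr10:80826406-80826655 (plus strand, 250 bases) and the Oaz2 window chr9:65676298-65676547 (plus strand, 250 bases).
Odc1 promoter: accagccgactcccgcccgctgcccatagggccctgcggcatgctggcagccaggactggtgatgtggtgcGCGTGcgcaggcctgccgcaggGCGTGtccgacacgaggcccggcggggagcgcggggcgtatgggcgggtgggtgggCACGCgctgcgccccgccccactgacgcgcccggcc
Oaz1 promoter: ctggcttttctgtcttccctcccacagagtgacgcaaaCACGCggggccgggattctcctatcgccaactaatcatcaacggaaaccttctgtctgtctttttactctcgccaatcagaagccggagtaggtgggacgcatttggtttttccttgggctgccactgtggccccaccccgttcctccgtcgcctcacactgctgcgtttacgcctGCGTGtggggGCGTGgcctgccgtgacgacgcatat
Oaz2 promoter: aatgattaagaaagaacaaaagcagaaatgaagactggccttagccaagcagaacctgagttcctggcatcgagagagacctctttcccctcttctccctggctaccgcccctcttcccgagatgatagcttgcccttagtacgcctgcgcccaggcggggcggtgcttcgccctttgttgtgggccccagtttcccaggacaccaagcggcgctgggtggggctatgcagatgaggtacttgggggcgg
The core occurred 3 times upstream of Odc1, 3 times upstream of Oaz1 and 0 times upstream of Oaz2. Of 32851 mouse promoters, 23.6% held it in a window as long as that of Odc1 and 28.2% in a window of 250 bases. These are matches of letters, not measured binding sites, and the values of the 3 genes are given below.

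Values are log2 signals, that is the natural log values of the deposited table divided by the natural log of 2; a difference of 1 is a doubling. Array medians lay between 7.54 and 7.56 and arrays of the same group correlated at r = 0.964 to 0.994 across probes. Along the main axis of variation among arrays (24.52% of the variance), Xpc-/- control mice 1 and 2 were placed at 38.42 and 40.54, whereas the remaining 18 mice ran from -18.74 to 8.10. Results that rest on them are therefore also given without them. Each B[a]P or genotype effect was tested with limma over all 20868 probes, and a change is called where the Benjamini-Hochberg adjusted p is under 0.05. The labels do not say whether same-group mice shared a cage or a litter, and the p-values measure the spread between these mice. In whole tissue, fewer cells of a type and less RNA per cell cannot be told apart. Probes for 10 elongating spermatid genes together averaged 14.0 to 14.4 in every mouse. That is above the bound of 13.75 that marks the brightest 1% of probes, though Akap4 (mean 12.82) and Odf1 (8.01) lay below it. Probes for 3 liver genes together averaged 6.85 to 7.20, below the array medians. Of these, Alb alone averaged 7.65, above the array medians, while Apoa2 (6.98) and Ttr (6.49) lay below them.

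Oaz3, the spermatid antizyme, was the member that changed. Its transcript was higher in the testes of B[a]P-exposed mice of both genotypes, by 1.30-fold. None of the other 6 members passed the test for B[a]P over both genotypes, and no member passed it for genotype or for the interaction. The share of all probes called for B[a]P over both genotypes was 5.68% (1186 probes), and 3.57% were called as higher in exposed mice. With 7 members, 1 call is too few to read as a property of the group.

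In exposed Xpc-/- testes the Oaz3 signal was 14.70, 14.37, 14.32, 14.49 and 14.48, against 14.08, 14.23, 14.26, 14.07 and 13.76 in control Xpc-/- testes. In exposed Wt testes it was 14.56, 14.31, 14.49, 14.27 and 14.37, against 14.17, 14.04, 13.91, 14.05 and 14.01 in control Wt testes. Every one of the 10 exposed mice lay above every one of the 10 controls, though by a margin as narrow as 14.27 in an exposed Wt mouse against 14.26 in a control Xpc-/- mouse. Such a complete separation of the 10 exposed from the 10 control mice, in either direction, occurred in 0.412% of all probes (86 probes). Within Xpc-/- mice 2.29% of probes separated completely, and within Wt mice 4.26% did. No other member separated completely in any of the 3 comparisons.

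**Figure D1:**
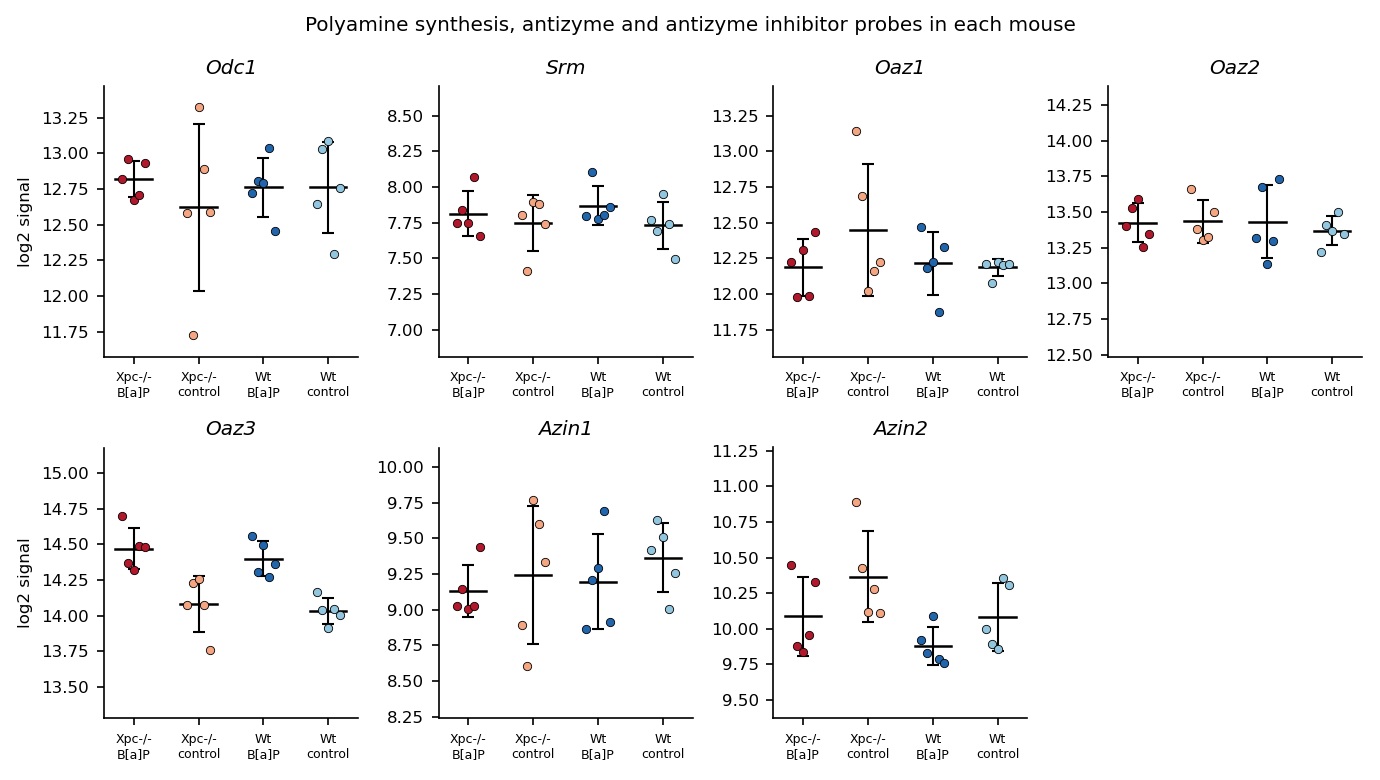
log2 signal of the 7 member probes (vertical axes, all spanning 1.9 log2 units) in each of the 20 mice, with 5 mice per group, the group mean as a horizontal line and 1 SD as error bars. The Oaz3 points of exposed mice (14.27 to 14.70) all lie above those of control mice (13.76 to 14.26), whereas the groups overlap for the other 6 genes.

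The Oaz3 difference over both genotypes was 0.38 ± 0.07 (SE, n = 10 exposed and 10 control mice, 95% interval 0.23 to 0.53, limma adjusted p = 0.00227), and it ranked 188 by p among all probes. An exact two-sided permutation test within genotypes gave p = 3.15e-05, the smallest that its 63504 splits allow. The complete separation described above already fixed this value. In Xpc-/- mice the difference was 0.39 ± 0.11 (limma adjusted p = 0.0733) and in Wt mice 0.37 ± 0.11 (adjusted p = 0.105), so neither genotype alone passed the threshold across all probes. With 5 against 5 mice, the exact permutation p for this probe was 0.00794 in each genotype, again the smallest possible (252 splits). Any probe that separates completely has this p, which is not adjusted for the number of probes, so it adds nothing to the separation. Probes called within 1 genotype were few, 0.647% in Xpc-/- and 0.695% in Wt, and 0 members were among them. The 2 effects differed by 0.02 ± 0.15 (95% interval -0.28 to 0.33), an interval that leaves room for a difference of about the size of the effect itself. These 3 comparisons use the same mice. Without Xpc-/- control mice 1 and 2 the Xpc-/- difference was 0.44 with adjusted p = 0.0384, where 2.61% of all probes were called.

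The genotypes did not differ in Oaz3 beyond the spread: the Xpc-/- mean was 14.28 and the Wt mean 14.22 (difference 0.06 ± 0.07, limma adjusted p = 0.88). The Oaz3 probe was among the brightest of the array, at the 99.4th percentile with a mean of 14.25, while the brightest probe averaged 15.93. Its SD within groups was between 0.09 and 0.20.

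**Figure D2:**
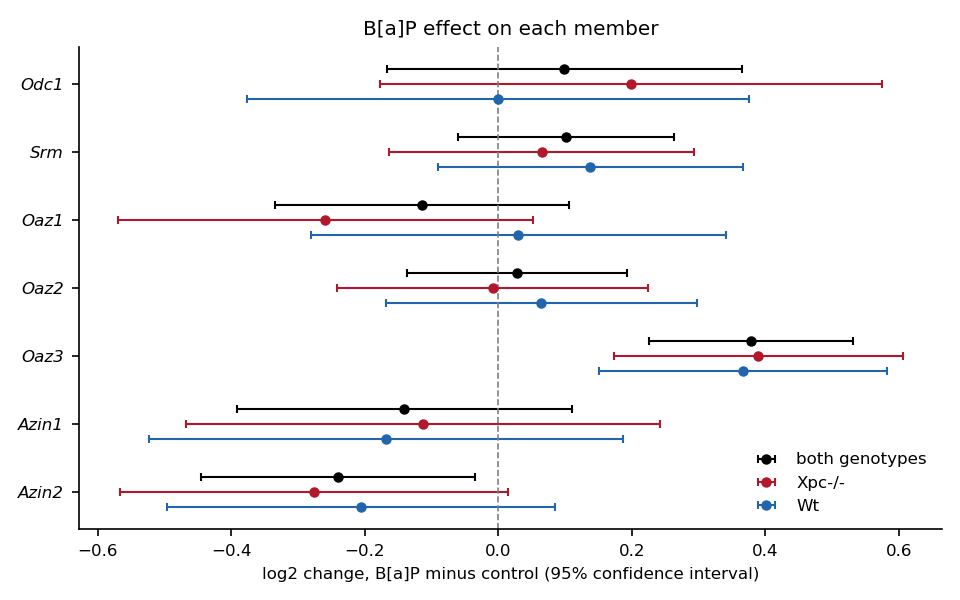
B[a]P effect (log2 signal of exposed minus control mice, horizontal axis) for the 7 members over both genotypes (10 against 10 mice) and in Xpc-/- and Wt mice (5 against 5 each), with 95% confidence intervals from limma. The 3 intervals of Oaz3 lie wholly above 0 (0.23 to 0.53 over both genotypes), and that of Azin2 over both genotypes lies below 0 (-0.45 to -0.03) without passing the adjusted threshold.

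Oaz3 is made by spermatids, and the markers of these cells were read beside it. Of 10 elongating spermatid probes, 0 were called in either direction and their median change was -0.11, against -0.01 over all probes. The mean level of these probes ranged from 14.21 to 14.33 in exposed Xpc-/- mice and from 14.27 to 14.43 in control Xpc-/- mice. In Wt mice it ranged from 14.03 to 14.39 with B[a]P and from 14.23 to 14.43 without. The groups thus overlapped within each genotype. Prm1, Prm2, Tnp1 and Ldhc, which encode chromatin proteins of spermatids and sperm and the sperm lactate dehydrogenase, were among the 20 brightest probes of the array. On 17 of the 20 arrays Prm1, Prm2 and Ldhc held the same value to within 0.001. These 4 bright probes, each at -0.11, therefore count as about 1 reading near the top of the scale. Of the other 6 elongating spermatid probes 3 were higher and 3 lower in exposed mice, 0 were called, and their median change was -0.04. Of 6 round spermatid probes, 1 fell: Crem, a transcription factor of round spermatids, changed by -0.31 ± 0.10 (adjusted p = 0.0463), and the median of the 6 was -0.11. That call was lost without Xpc-/- control mice 1 and 2 (-0.25, adjusted p = 0.0828), and in 13 of the 20 fits that each leave out 1 mouse. In the fit without those 2 mice Spaca1, an acrosomal membrane protein, was called instead (-0.26 ± 0.09, adjusted p = 0.0461).

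Among the other markers, 1 of 7 spermatocyte probes rose (Sycp3, a protein of the synaptonemal complex, by 0.40 ± 0.08, adjusted p = 0.00409). None of the 6 spermatogonial, 7 Sertoli cell or 5 Leydig cell probes was called. The Leydig cell probes had a median change of 0.21 over both genotypes, -0.03 in Xpc-/- mice and 0.45 in Wt mice, where all 5 were higher (smallest adjusted p = 0.238), and none was called for the interaction (smallest adjusted p = 0.999). In Wt mice their mean level ran from 9.66 to 10.05 with B[a]P, within the range of 8.74 to 10.41 without. The part of cell composition in the Oaz3 difference was not tested.

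**Figure D3:**
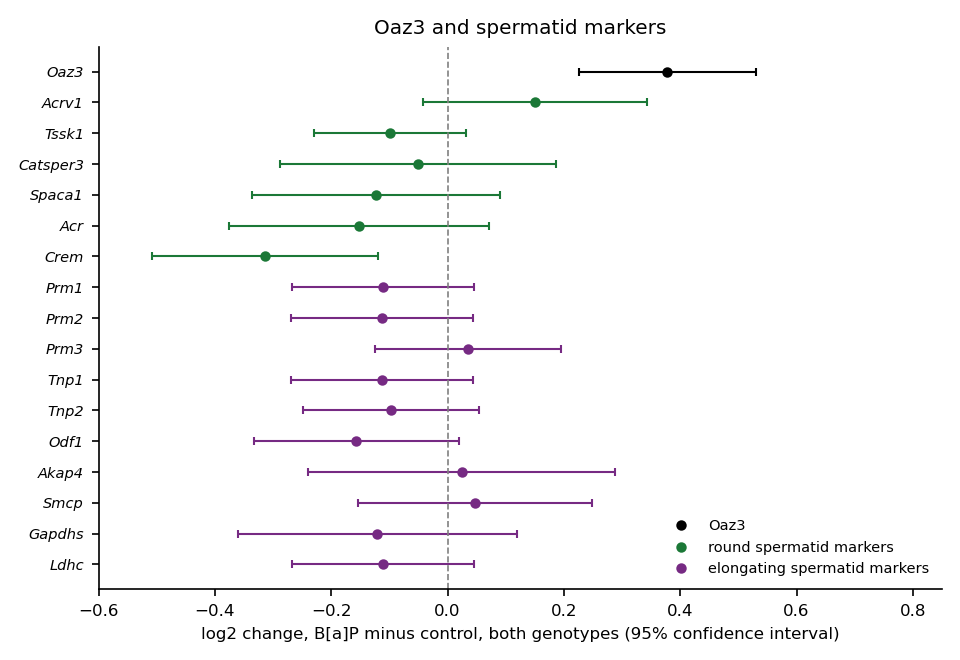
B[a]P effect over both genotypes (log2 signal of 10 exposed minus 10 control mice, horizontal axis) for Oaz3 and for the 6 round and 10 elongating spermatid markers, with 95% confidence intervals. Oaz3 (0.38) lies to the right of all 16 marker probes, of which Acrv1 is the highest at 0.15 and Crem the lowest at -0.31.

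By within-group deviations over the 20 mice, the probes with 1 gene symbol most like Oaz3 were Barx1 (Pearson r = 0.80), Robo3 (r = 0.77) and Cdc42ep4 (r = 0.76). Cdc42ep4, an effector of the small GTPase Cdc42, was itself higher in exposed mice by 0.39 (adjusted p = 0.00188), whereas Barx1 changed by 0.02 (adjusted p = 0.942) and Robo3 by 0.18 (adjusted p = 0.15). These correlations are descriptions of the 3 closest among the 18303 probes with 1 gene symbol.

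The other antizymes showed no call. Oaz1, the general antizyme, gave 12.23, 11.98, 12.31, 11.98 and 12.43 in exposed Xpc-/- testes, against 13.14, 12.68, 12.02, 12.16 and 12.22 in control Xpc-/- testes. In Wt testes it gave 12.47, 12.18, 12.23, 11.87 and 12.33 with B[a]P, against 12.21, 12.08, 12.23, 12.21 and 12.21 without. The highest 2 of the 20 values belong to Xpc-/- control mice 1 and 2, whose arrays stood apart, and the groups overlap. Over both genotypes Oaz1 changed by -0.11 ± 0.11 (adjusted p = 0.629), but by 0.04 without these 2 mice, so its direction was not settled. Mouse Oaz1 has a closely similar processed pseudogene, and the probe sequence was not at hand to tell them apart. Oaz2 differed by 0.03 ± 0.08 between exposed and control mice (95% interval -0.14 to 0.19, adjusted p = 0.9), and its 20 values ran from 13.14 to 13.73.

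Odc1, the first enzyme of the pathway, was level on average and variable between mice. Exposed Xpc-/- testes had 12.82, 12.96, 12.67, 12.71 and 12.94, against 12.58, 11.72, 13.32, 12.89 and 12.59 in control Xpc-/- testes. Exposed Wt testes had 12.72, 12.80, 12.79, 13.04 and 12.46, against 12.65, 13.03, 13.09, 12.30 and 12.76 in control Wt testes. Both the lowest and the highest value were in the control Xpc-/- group, whose SD was 0.59 against 0.13 in exposed Xpc-/- mice. The lowest was that of Xpc-/- control mouse 2, whose array stood apart, so that SD rests in part on it. The groups overlapped. The B[a]P difference was 0.10 ± 0.13 over both genotypes (95% interval -0.17 to 0.36, adjusted p = 0.752) and -0.06 without Xpc-/- control mice 1 and 2. In Wt mice alone it was less than 0.01 in size, with a 95% interval from -0.38 to 0.37. In Xpc-/- mice alone it was 0.20 (95% interval -0.18 to 0.57), or -0.11 without those 2 mice. Srm, the spermidine synthase, had a mean of 7.79, at the 56.5th percentile of all probes, and its 20 values ran from 7.41 to 8.10. The liver gene Alb ran from 7.32 to 8.08, so whether Srm stood above background could not be judged. Srm changed by 0.10 ± 0.08 (95% interval -0.06 to 0.26, limma adjusted p = 0.545), or by 0.06 without those 2 mice.

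The antizyme inhibitors both had lower means in exposed mice without passing the test. Azin2 measured 10.44, 9.88, 9.84, 9.96 and 10.33 in exposed Xpc-/- testes, against 10.89, 10.43, 10.12, 10.28 and 10.11 in control Xpc-/- testes. In Wt testes it measured 9.92, 9.83, 10.09, 9.79 and 9.76 with B[a]P, against 9.998, 9.89, 9.86, 10.36 and 10.31 without. The highest value was that of Xpc-/- control mouse 1, and the groups overlapped in both genotypes. The difference was -0.24 ± 0.10 over both genotypes (95% interval -0.45 to -0.03), with an unadjusted p of 0.0233 and a limma adjusted p of 0.178. Without Xpc-/- control mice 1 and 2 it was -0.14 (adjusted p = 0.36), and in Xpc-/- mice alone -0.08 in place of -0.28. By genotype, Azin2 averaged 10.23 in Xpc-/- and 9.98 in Wt mice (0.25 ± 0.10, adjusted p = 0.744), a difference of 0.15 without the same 2 mice.

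Azin1, the more widely made inhibitor, measured 9.03, 9.14, 9.01, 9.03 and 9.44 in exposed Xpc-/- testes, against 8.90, 8.61, 9.77, 9.60 and 9.34 in control Xpc-/- testes. The 2 lowest of these controls are the arrays that stood apart. In Wt testes Azin1 measured 8.87, 9.21, 9.29, 9.69 and 8.91 with B[a]P, against 9.42, 9.63, 9.51, 9.01 and 9.26 without. Over all 20 mice the difference was -0.14 ± 0.12 (adjusted p = 0.598). Without Xpc-/- control mice 1 and 2 it was -0.30 ± 0.10 and passed the test (adjusted p = 0.045), in a fit where 11.5% of all probes were called (2401 probes).

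For genotype, the smallest adjusted p of any member was 0.744 over both treatments, 0.987 in exposed and 0.894 in unexposed mice, and it was 0.999 for the interaction. Few probes of the whole array were called in these comparisons, 0.0192% for genotype over both treatments (4 probes), 0.00479% in exposed mice (1 probe) and 0 for both unexposed mice and the interaction. With limma, 1366, 904, 926 and 649 probes had an unadjusted p under 0.05 in these 4 comparisons in the order named, of which 1 was a member's (Azin2, over both treatments).

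Odc1 and Azin1 varied together from mouse to mouse. As deviations from the group means, they correlated at r = 0.87 (Spearman's rho = 0.85, 20 mice), the strongest of the 21 pairs of members. The correlation was 0.79 without the 2 mice farthest from the median of Odc1 and 0.81 in the 18 mice other than Xpc-/- control 1 and 2. It is given as a description, with no p, since the pair was picked for its size. Azin1 was not alone: 110 other probes (0.527% of 20867) followed Odc1 as closely as Azin1 did or more closely. Of the probes with 1 gene symbol, the closest were Ppp2r2a (r = 0.97), Ndufa13 (r = 0.96) and Ccdc181 (r = 0.96). Oaz1 ran the other way, with r = -0.49 against Odc1 and r = -0.67 against Azin1 (-0.40 and -0.48 in the 18 mice). Of all probes, 11.9% ran against Odc1 at least as strongly as Oaz1 did, and no such share was worked out for Azin1. With Azin2, the other inhibitor, Oaz1 correlated at r = 0.65 (0.34 in the 18 mice). Oaz3 correlated weakly with Odc1 (r = -0.11) and Azin1 (r = -0.20). Its correlations were larger in size with Oaz2 (r = -0.44) and Azin2 (r = 0.42), at -0.50 and 0.48 in the 18 mice. All probes of a mouse share its array, and the part of the array in these correlations was not tested.

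**Figure D4:**
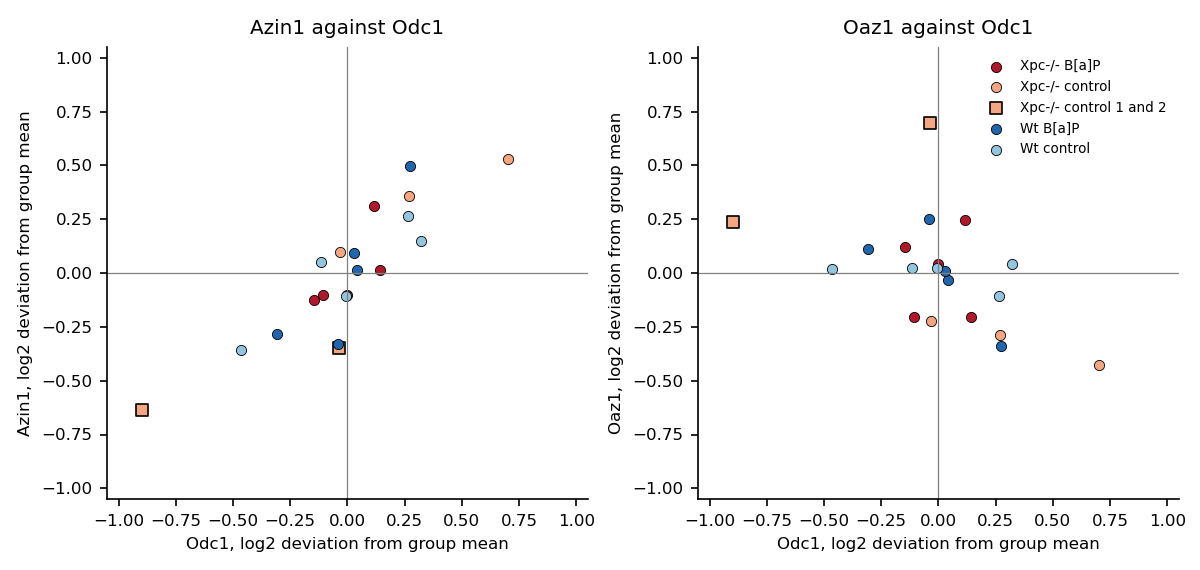
Deviation of Azin1 (left) and Oaz1 (right) from the group mean against that of Odc1, all in log2 signal, with 1 point per mouse (20 mice) and squares for Xpc-/- control mice 1 and 2. Azin1 climbs with Odc1 (r = 0.87) and Oaz1 declines (r = -0.49), and 1 square is the lowest point for both Odc1 and Azin1.

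The rest of the pathway was read from 31 probes for later synthesis, precursors, catabolism, methionine salvage, hypusine and transport. Over both genotypes, 2 of the 31 rose with B[a]P, 0 fell, and the median change was -0.03, against -0.01 over all probes. That share is close to the 5.68% called among all probes. In the other 6 comparisons 0 of the 31 were called. The count ranged from 0 to 5 when 1 mouse was left out. The 1 probe for later synthesis (Sms, spermine synthase) changed by 0.11 (limma adjusted p = 0.522), or by 0.05 without Xpc-/- control mice 1 and 2. The 4 probes for catabolism changed by -0.11 to 0.02, among them Sat1, the acetyltransferase that starts polyamine export and breakdown. The means of Sms (7.47) and Sat1 (7.77) lay within the values of the liver gene Alb (7.32 to 8.08). Whether they stood above background could not be judged.

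Slc3a2, the heavy chain of amino acid exchangers that has also been tied to polyamine export, had 11.11, 10.93, 11.11, 11.09 and 10.95 in exposed Xpc-/- testes, against 10.84, 11.06, 10.66, 10.50 and 10.73 in control Xpc-/- testes. Exposed Wt testes had 11.02, 11.10, 10.97, 10.87 and 11.29, against 10.83, 10.60, 11.14, 10.41 and 10.60 in control Wt testes. In each genotype 1 control mouse reached into the exposed range. Slc3a2 rose by 0.31 ± 0.09 (adjusted p = 0.03), and by 0.37 without Xpc-/- control mice 1 and 2 (adjusted p = 0.00374), but the call was lost in 9 of the 20 fits that each left out 1 mouse (adjusted p up to 0.0777).

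Apip, a dehydratase of the methionine salvage pathway that recycles the by-product of spermidine and spermine synthesis, rose by 0.35 ± 0.10 (adjusted p = 0.0347). It measured 10.42, 10.50, 10.52, 10.38 and 10.41 in exposed Xpc-/- testes, against 9.49, 9.70, 10.32, 10.21 and 10.32 in control Xpc-/- testes, and 10.39, 10.56, 10.47, 10.27 and 10.18 in exposed Wt testes, against 10.15, 10.24, 10.31, 9.63 and 10.23 in control Wt testes. The 2 lowest Xpc-/- controls were the arrays that stood apart, and without them the difference was 0.21 (adjusted p = 0.0992). The Apip call was also lost in 8 of the 20 fits that each left out 1 mouse (limma adjusted p up to 0.0888). Of the probes that did not pass, the smallest p-values were those of Slc12a8 (-0.32, adjusted p = 0.0632), Slc12a9 (-0.22, adjusted p = 0.0744) and Dhps, the first enzyme of hypusine formation from spermidine (0.25, adjusted p = 0.108). The Slc12a8 probe was dim, with a mean of 6.79 at the 18.5th percentile of all probes. This lay below the 6.85 to 7.20 that the 3 liver probes averaged, so whether it stood above background could not be judged. The same holds for Slc12a9 (mean 7.34), which lay within the values of the liver gene Alb (7.32 to 8.08). Without those 2 arrays Slc12a8 changed by -0.27 (limma adjusted p = 0.086) and Slc12a9 by -0.18 (adjusted p = 0.122). Dhps then changed by 0.14 (adjusted p = 0.305). Slc7a1, which carries arginine into cells, had 2 probes that differed, at 0.24 (adjusted p = 0.137) and -0.03 (adjusted p = 0.935). Without Xpc-/- control mice 1 and 2 the first was called (0.32, adjusted p = 0.0161) and the second was at -0.12 (adjusted p = 0.514).

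**Figure D5:**
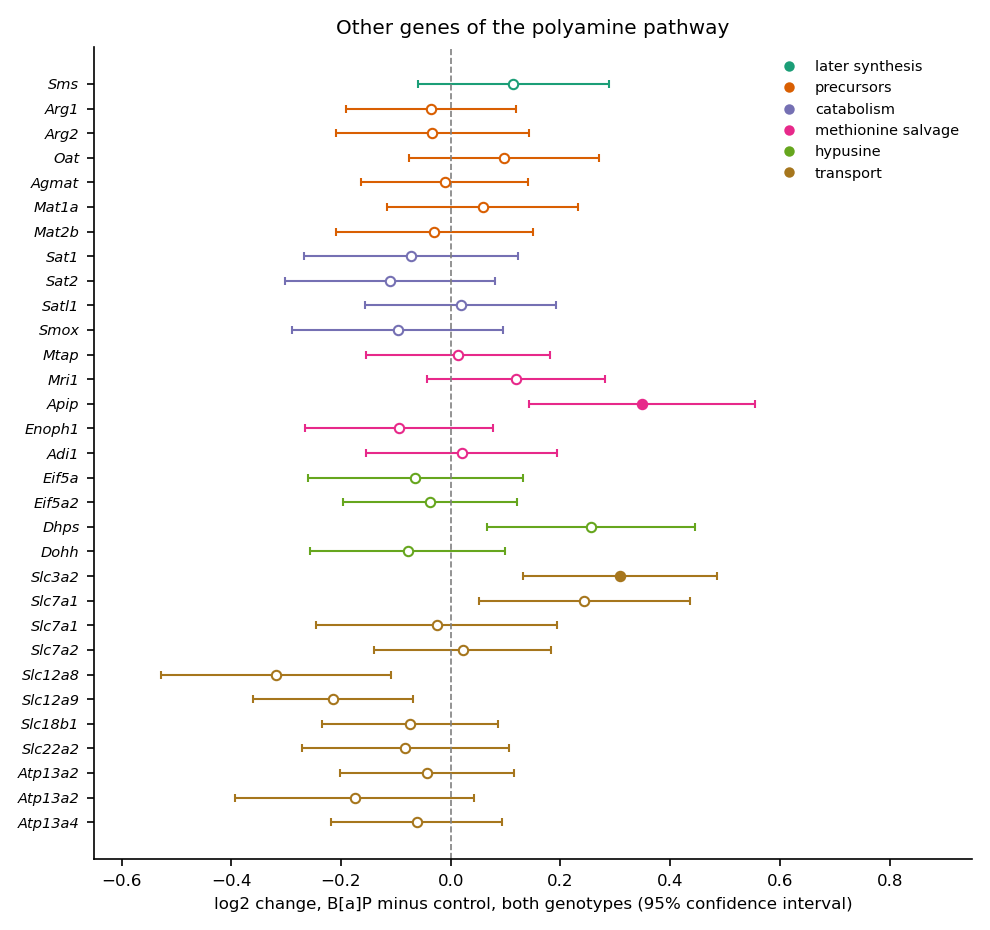
B[a]P effect over both genotypes (log2 signal of 10 exposed minus 10 control mice, horizontal axis) for the 31 probes of the wider polyamine pathway, coloured by role, with 95% confidence intervals; filled points passed the adjusted threshold and open points did not. Apip (0.35) and Slc3a2 (0.31) are the 2 filled points, and the other 29 points are open, with Slc12a8 lowest at -0.32.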

How the data were processed

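RNA of each testis was labelled with Cy5 and the pool with Cy3 and hybridised to Agilent mouse arrays. The deposited table holds 1 natural log value per probe and mouse for 20868 probes. Per the methods, the authors had already put the arrays on a common distribution by quantiles and corrected them for the signal of the pool, and a probe spotted more than once is given as 1 mean. Scanner files were not used here, so spots near background or saturation could not be marked, and no sequencing depth applies. Probe names came from the platform annotation, updated by Entrez ID to RefSeq on GRCm38.p6; 18303 probes had 1 symbol, 2565 had none and 0 had several. Values were divided by the natural log of 2 to give log2 values and fitted with limma (version 3.58.1, R 4.3.3), with 1 mean per group and Benjamini-Hochberg adjustment over all probes, after the fit was tested on simulated data. The paper's own test, a two-way analysis of variance, was an alternative, with other normalizations, array weights, a filter on dim probes, a replicate block and mice left out. Every member was named. Of the pathway list, the called probes and the 3 smallest p-values were named. Slc7a1, Sms and Sat1, and the marker Spaca1, were chosen after their values were seen. For Odc1 and Oaz3, the 3 most correlated probes with 1 symbol were named. Members and lists were chosen with earlier results of these data known. Permutation tests and figures used Python 3.11.15 with scipy 1.17.1 and matplotlib 3.10.9.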

Additional observations from a re-analysis of the deposited data

Results flagged for a closer look

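Of 28 sets of 5 mice (7 members in 4 groups), 2 held a mouse far from the other 4 by Dixon's gap test, about what chance gives at 1 in 20. For Srm, Wt B[a]P mouse 2 was at 8.1047, while the other 4 lay between 7.7756 and 7.8594. For Oaz1, Wt control mouse 2 was at 12.0772, while the other 4 lay between 12.2057 and 12.2271, a gap smaller than the SD of Oaz1 in each of the other groups (0.20 to 0.46).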

How the results depend on the processing

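Of the 7 members, Oaz3 was called for B[a]P over both genotypes under all 28 alternatives, at 0.34 to 0.40 when 1 mouse was left out (adjusted p = 0.00138 to 0.00671) and at 0.37 to 0.41 otherwise (0.000188 to 0.00403). Members called were 2 without Xpc-/- control 1 and 2 (with Azin1). Within Xpc-/- mice 1 was called with array weights (Oaz3, 0.46), 1 without Xpc-/- control 1 and 2, and 0 to 1 with 1 mouse left out (1 without Xpc-/- control 3, Oaz3 at 0.43, adjusted p = 0.0418), and within Wt mice 1 with array weights (Oaz3, 0.36). All probes called for B[a]P over both genotypes numbered 2630 with array weights, and 763 (without Wt control 4) to 1667 with 1 mouse left out; within Xpc-/- 2 (without Xpc-/- control 5) to 321, against 135 with all mice, and within Wt 17 (without Wt control 4) to 254, against 145 with all mice. Within Xpc-/- they numbered 604 with array weights, 57 with a trend and robust prior and 545 without Xpc-/- control 1 and 2, and within Wt 703, 73 and 447 under the same settings. Pathway probes called numbered 1 in the ordinary two-way analysis of variance (Slc12a9, adjusted p = 0.0416) and 0 (without Xpc-/- B[a]P 3, Wt B[a]P 2 or Wt control 4) to 5 (without Xpc-/- control 3) with 1 mouse left out. Slc3a2 (adjusted p = 0.0578) and Apip (0.0938) missed the threshold in that analysis, and Apip also with array weights (0.22, adjusted p = 0.0643).

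Uncalled values changed sign as follows. With array weights, Oaz1 for B[a]P over both genotypes was 0.0043 and Oaz2 in Xpc-/- 0.0049; for genotype over both treatments Odc1 was 0.0199, Srm 0.0352, Oaz3 -0.0038 and Azin1 0.0059; in exposed mice Oaz2 was 0.0084; in unexposed mice Odc1 was 0.0099, Oaz3 -0.0495 and Azin1 0.0686; and for the interaction Azin1 was -0.1253 and Azin2 0.0220. With quantile normalization the Oaz3 interaction was -0.0124. Without Xpc-/- control 1 and 2, over both genotypes Odc1 was -0.0570 and Oaz1 0.0414; in Xpc-/- Odc1 was -0.1132, Srm -0.0276, Oaz1 0.0527 and Oaz2 0.0494; for genotype over both treatments Odc1 was 0.1140, Srm 0.0269, Oaz1 -0.0408, Oaz2 -0.0005 and Azin1 0.0689; in unexposed mice Odc1 was 0.1702, Oaz1 -0.0520, Oaz3 -0.0031 and Azin1 0.2046; and for the interaction Odc1 was -0.1124, Oaz1 0.0225, Azin1 -0.2713 and Azin2 0.1245.

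With 1 mouse left out at a time, these values spanned 0: for B[a]P over both genotypes Oaz2 -0.0093 to 0.0648 and Odc1 -0.0132 to 0.1867, in Xpc-/- Oaz2 -0.0496 to 0.0478, Odc1 -0.0256 to 0.3741, Srm -0.0191 to 0.1033 and Azin1 -0.2719 to 0.0189, in Wt Odc1 -0.1174 to 0.0798, Oaz1 -0.0328 to 0.1154 and Oaz2 -0.0099 to 0.1383. The same held for genotype over both treatments Srm -0.0516 to 0.0226, Oaz2 -0.0084 to 0.0657 and Odc1 -0.1297 to 0.0702, for genotype in exposed mice Oaz1 -0.1148 to 0.0334, Srm -0.1206 to 0.0035, Oaz2 -0.0819 to 0.0663, Azin1 -0.1488 to 0.0580 and Odc1 -0.0189 to 0.1264, for genotype in unexposed mice Srm -0.0409 to 0.1010, Odc1 -0.3171 to 0.0826 and Azin1 -0.2545 to 0.0363, for the interaction Oaz3 -0.0560 to 0.0679, Azin1 -0.1031 to 0.1878, Oaz2 -0.1471 to 0.0011, Azin2 -0.1593 to 0.0600 and Odc1 -0.0248 to 0.3749. The Slc7a1 probe whose change was near 0 ran from -0.0903 to 0.0183. The cause of these changes was not tested.

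Replicate numbers are shared by the groups, but same-numbered mice did not deviate together (r = -0.23 to 0.32 over 30 pairs, and 5 of 20 mice correlated best with their own number), so the numbers were not taken to pair them. With a replicate block, Oaz3 gave 0.38 (adjusted p = 0.00315), 1 member and 1228 probes were called for B[a]P over both genotypes, and no call of a member changed.

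Signal over background could not be judged from the deposited values, the number of arrays limits the precision, and 1 probe per gene cannot separate transcripts or copies.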
